A study of Mus musculus with 18 samples.

Results

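The distal miRNA cluster of the Dlk1-Dio3 locus on mouse chromosome 12 was followed in adrenal glands and in transgenic mouse neuroblastomas. Its members were all rows of the deposited miRNA table whose name carries a number of the miR-379/miR-410 cluster, from miR-379 to miR-410, with any letter and either arm. They came to 75 of 1966 mature miRNAs, from 38 hairpin names. Small RNA had been sequenced from 3 groups with 18 libraries in all. The AG group held 3 adrenal glands of Cre-negative mice. The TI group held 7 neuroblastoma tumors of Cre-positive mice with the IGF2BP1 transgene, of which 6 were labelled IGF2BP1 +/+ and 1 IGF2BP1 +/-. The TIM group held 8 neuroblastoma tumors of Cre-positive mice with both IGF2BP1 (written IMP1 in the labels) and MYCN. The transgenes sat in the Rosa26 locus behind a stop cassette, IGF2BP1 lacked its native 3′UTR, and the Cre was driven by Dbh, so that expression began in sympatho-adrenal cells. The labels gave no copy number for TIM. The study's genotyping found no wildtype Rosa26 allele in its IGF2BP1/MYCN mice, so each transgene took 1 allele there. TIM therefore differed from most TI tumors in copies of IGF2BP1 as well as in MYCN. Median survival in the study was shorter in IGF2BP1/MYCN mice than in homozygous IGF2BP1 mice, so age may differ between the tumor types too. The labels gave no age. They named the adrenal gland as the site of 1 TI and 2 TIM tumors and the spine as that of 1 TIM tumor, but the columns of the table carried only the group. Libraries are therefore numbered here in column order within their group, which is a name and no link to a mouse, a site or the heterozygous tumor.

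The Dlk1-Dio3 domain is imprinted. The protein-coding genes Dlk1, Rtl1 and Dio3 are expressed from the paternal chromosome, whereas the non-coding RNAs Meg3, Rian and Mirg and the miRNAs of the domain come from the maternal chromosome. The distal miRNAs are cut from a long maternal transcript, each hairpin giving a 5p and a 3p arm, and they are known for their expression in brain and embryo. miR-134, a member, is known to limit the growth of dendritic spines in neurons. How levels of these miRNAs differed between the adrenal gland and the tumors, and between the tumor types, was the comparison made here.

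RefSeq entries on GRCm38.p6, the same assembly as the authors' mm10, were found for 71 of the 75 members and for 36 hairpins. The miRNAs without a sequence entry were miR-376c-3p, miR-539-3p, miR-487b-3p and miR-485-5p. The hairpins spanned 34736 bp of chromosome 12, from 109709060 to 109743795, with 35 on the plus strand and 1 (Mir299b) on the minus strand. Of these, 27 lay upstream of the annotated Mirg gene (109734981 to 109749458) and 9 inside it. Dlk1 lay upstream of the cluster (109452485 to 109463336) and Dio3 downstream (110279230 to 110281097). Exon and intron positions were not used here.

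The mature sequences below are those the results turn on, written 5′ to 3′ from RefSeq with the seed (bases 2 to 8, which pair with a target) in capitals. The first lines are the most abundant members, those of the hairpin pair at the 5′ end of the cluster and then those that led in the tumors.
miR-379-5p: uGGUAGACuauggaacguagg
miR-411-5p: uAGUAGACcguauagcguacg
miR-381-3p: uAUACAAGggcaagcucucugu
miR-300-3p: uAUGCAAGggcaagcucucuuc
miR-541-5p: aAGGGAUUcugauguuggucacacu
miR-134-5p: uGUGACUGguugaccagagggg
The next lines are members with the largest differences from AG.
miR-323-3p: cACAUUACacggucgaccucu
miR-758-3p: uUUGUGACcugguccacua
miR-412-3p: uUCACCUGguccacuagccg
miR-376b-3p: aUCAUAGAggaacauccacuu
miR-376a-3p: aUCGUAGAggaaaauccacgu
The last lines are the 3p arms of the overlapping Mir299a and Mir299b hairpins, which did not pass as higher in either tumor type.
miR-299a-3p: uAUGUGGGacgguaaaccgcuu
miR-299b-3p: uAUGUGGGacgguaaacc
Near-identical members were present. miR-381-3p (109726870 to 109726891, plus strand) and miR-300-3p (109724363 to 109724384, plus strand) had 22 bases each and differed at 3 of them, A4G, G21U and U22C, counted from 1 at the 5′ end with the base of miR-381-3p first. The A4G difference lies in the seed. miR-376a-3p and miR-376b-3p differed by G4A in the seed and by A13C and G20U beyond it, with the base of miR-376a-3p first. The 18 bases of miR-299b-3p were identical to the first 18 of the 22 bases of miR-299a-3p, and miR-376c-5p differed from miR-376b-5p only by U19G. miR-379-3p and miR-411-3p differed only by U10C and U22C, with the base of miR-379-3p first. How the authors assigned reads that fit several such miRNAs is not given in the sources used here, so the division of reads within these pairs is uncertain.

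Seeds were otherwise varied. The 65 tested members with a sequence carried 60 distinct seeds, and 10 of them fell into 5 pairs with a shared seed. These pairs were miR-379-3p with miR-411-3p (AUGUAAC), miR-299a-3p with miR-299b-3p (AUGUGGG), miR-379-5p with miR-1193-5p (GGUAGAC), miR-494-5p with miR-410-5p (GGUUGUC) and miR-376c-5p with miR-376b-5p (UGGAUAU). No other tested miRNA of the table with a sequence carried any of these 5 seeds. Pairs did not always share a response. Between TIM and AG, miR-1193-5p differed by 1.58 on the log2 scale and miR-379-5p by 0.21, while miR-410-5p differed by 3.06 and miR-494-5p by 0.54. The value of miR-494-5p, at 0.185 to 0.466 CPM in AG, depended on the scale and ran from 0.18 to 1.77 over the alternatives, and its ratio of mean CPM was 3.51.

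Values are in CPM, which gives the reads of a miRNA as a share of the library total scaled by the authors' TMM factor. Libraries held 21644743 to 23332704 reads on miRNAs in AG, 11802837 to 21268124 in TI and 11641696 to 23435621 in TIM. A level of 3 reads corresponded to 0.101 to 0.272 CPM, which covers counting error only. A miRNA was tested where 3 or more libraries reached 1 CPM, which left 726. The log2 differences are those of log2(CPM + 1), a scale that understates the differences of miRNAs with few reads. Of the members, 68 were tested. The other 7 were miR-1197-5p, miR-299b-5p, miR-453, miR-539-3p, miR-654-3p, miR-654-5p and miR-758-5p. All were under 1.1 CPM in every library except miR-654-3p, which had 4.67 CPM (101 reads) in AG library 1 and was at 0 in the other AG libraries.

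Several libraries stood apart. AG library 1 had the lowest AG value for 63 of the 68 tested members. It also held the lowest summed level of the neuroendocrine markers miR-375-3p, miR-7a-5p and miR-7b-5p, with 49424 CPM against 116747 and 104576 CPM in the other AG libraries, and of 8 neural markers, with 4817 CPM against 10315 and 11729 CPM. Its smooth muscle and erythroid markers were the lowest in AG as well. Its liver marker (2592 CPM against 1169 and 780 CPM) and epithelial markers (384 CPM against 54.9 and 50.8 CPM) were the highest in AG, as were its stromal and leukocyte markers. TIM library 1 held 22972 CPM of the skeletal muscle markers miR-1a-3p, miR-133a-3p and miR-206-3p, compared with 46.6 to 344 CPM in the other libraries. TI library 5 had 2.29% of its reads on miR-148a-3p, the lowest share in TI, where the other libraries had 30.1% to 61.9%. This share was 4.19% to 6.94% in AG and 6.53% to 44.2% in TIM. The part of these differences in the results was not tested, and counts without each library are given where it matters.

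Most members were more abundant in tumors. Of the 68 tested members, 56 were higher and 0 lower in TI than in AG at an adjusted p under 0.05 (limma, all 18 libraries in one model, Benjamini-Hochberg over 726 miRNAs). The count of lower members was also 0 at an unadjusted p under 0.05, and with edgeR and DESeq2 on the recovered reads. It became 1 (miR-299b-3p) when TI library 6 was omitted. Over all 726 miRNAs, 26.4% were higher and 29.3% lower. The median log2 difference of the members was 1.98, compared with -0.01 over all tested miRNAs. In TIM, 51 members were higher and 1 was lower than in AG, compared with 25.5% higher and 25.9% lower over all miRNAs. The median difference of the members was 1.66, beside 0.18 over all miRNAs. Both comparisons used the same AG libraries. Without AG library 1, the number of members called was 45 in TI and 38 in TIM, while the calls over all miRNAs dropped from 55.8% to 42.7% (TI) and from 51.4% to 33.3% (TIM). It was 55 in TI without TI library 5 and 52 in TIM without TIM library 1, beside 59.5% and 49.4% of all miRNAs.

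The groups were separated for most members. Every TI library lay above every AG library for 54 members, compared with 22% of all tested miRNAs, and every TIM library did so for 42 members, compared with 21.1%. There were 42 members for which all 15 tumor libraries lay above all 3 AG libraries, compared with 16.3% of all tested miRNAs. Over all alternatives that kept every member, which leaves out the stricter filter on low values, and with any library left out, 45 members were called higher each time in TI, 37 in TIM and 37 in both. Over all miRNAs these shares were 18.7%, 15.6% and 12.7%. In bulk tissue, more cells of a type and more RNA per cell cannot be told apart.

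**Figure D1:**
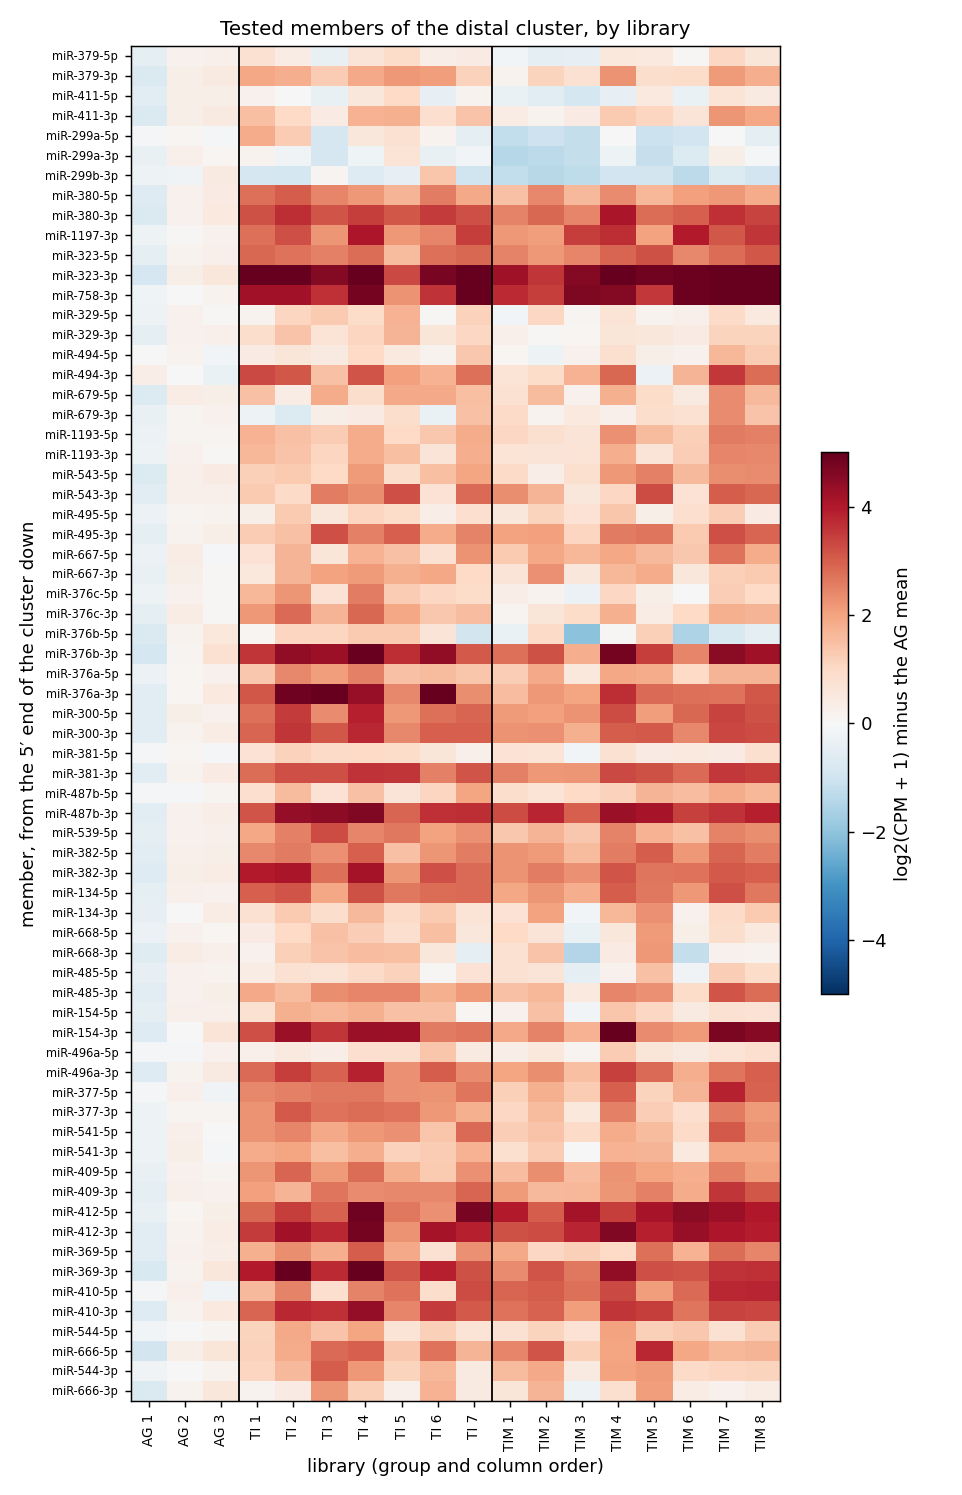
Heat map of log2(CPM + 1) minus the AG mean for the 68 tested members (rows, ordered from the 5′ end of the cluster, with the arms of miR-544 and miR-666, whose hairpins had no entry, at the bottom) in each of 18 libraries (columns). Red is above and blue below the AG mean; most rows are red in all tumors, whereas miR-379-5p, miR-411-5p and the miR-299 rows at the top are pale or blue.

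The most abundant members in AG did not pass in either tumor type. miR-379-5p, the 5p arm of the hairpin at the 5′ end of the cluster, had 9126, 15136 and 15444 CPM in the AG libraries. Its level ran from 9937 to 24633 CPM in TI (median 16904) and from 9258 to 26284 CPM in TIM (median 15752). These ranges overlapped, and the difference from AG was 0.44 on the log2 scale in TI (SE 0.34, adjusted p = 0.28 from limma) and 0.21 in TIM (SE 0.34, adjusted p = 0.63 from limma). miR-411-5p, from the next hairpin, had 7563, 13651 and 13715 CPM in AG. It ran from 8562 to 22183 CPM in TI (median 12662) and from 6046 to 18236 CPM in TIM (median 8893). It too overlapped, with a log2 difference of 0.16 in TI (adjusted p = 0.75 from limma) and -0.11 in TIM (adjusted p = 0.82 from limma). In AG these miRNAs ranked 1 and 2 among the members. When reads of miR-148a-3p were not counted in the totals, which raised the median of all miRNAs to 0.34 in TI and 0.57 in TIM, miR-379-5p passed in both tumor types (log2 difference 0.97 and 0.80, adjusted p = 0.019 and 0.046 from limma) and miR-411-5p in TI (0.69, adjusted p = 0.047 from limma).

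By contrast, miR-381-3p, which ranked 3 in AG, ranked 1 in the tumors. Its level was 1902, 3251 and 3734 CPM in AG, 16128 to 34648 CPM in TI (median 26304) and 12754 to 33019 CPM in TIM (median 23035). All tumors lay above all adrenal glands, with a log2 difference of 3.15 in TI (SE 0.35, adjusted p = 8.6e-07 from limma) and 2.90 in TIM (SE 0.34, adjusted p = 2.2e-06 from limma). miR-300-3p, the near-identical neighbour, had 732, 1238 and 1395 CPM in AG, 5683 to 14608 CPM in TI and 3689 to 10903 CPM in TIM. Its log2 difference was 3.10 in TI and 2.67 in TIM (adjusted p = 1.6e-06 and 7.3e-06 from limma). The ratio of miR-300-3p to miR-381-3p reads was 0.373 to 0.385 in AG, 0.167 to 0.540 in TI and 0.282 to 0.414 in TIM, so that the ranges of the groups overlapped while both miRNAs rose.

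The next members by level in the tumors rose as well. miR-541-5p had 2355, 3306 and 2747 CPM in AG, a median of 13224 CPM in TI (7333 to 19565) and a median of 7892 CPM in TIM (5399 to 23124). Its log2 difference from AG was 2.18 in TI and 1.67 in TIM (adjusted p = 0.00015 and 0.0016 from limma). miR-134-5p, the spine regulator, had 595, 995 and 979 CPM in AG, 3176 to 7504 CPM in TI (median 5976) and 2908 to 7775 CPM in TIM (median 4521). Its log2 difference was 2.78 in TI and 2.45 in TIM (adjusted p = 2.0e-06 and 7.5e-06 from limma), and no tumor overlapped with AG. Among the 12 members with the highest levels in tumors, the others were miR-382-5p, miR-409-3p, miR-323-3p, miR-382-3p, miR-495-3p and miR-543-3p. All of these were higher in both tumor types, with log2 differences from 1.94 (miR-543-3p in TIM) to 4.99 (miR-323-3p in TI).

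**Figure D2:**
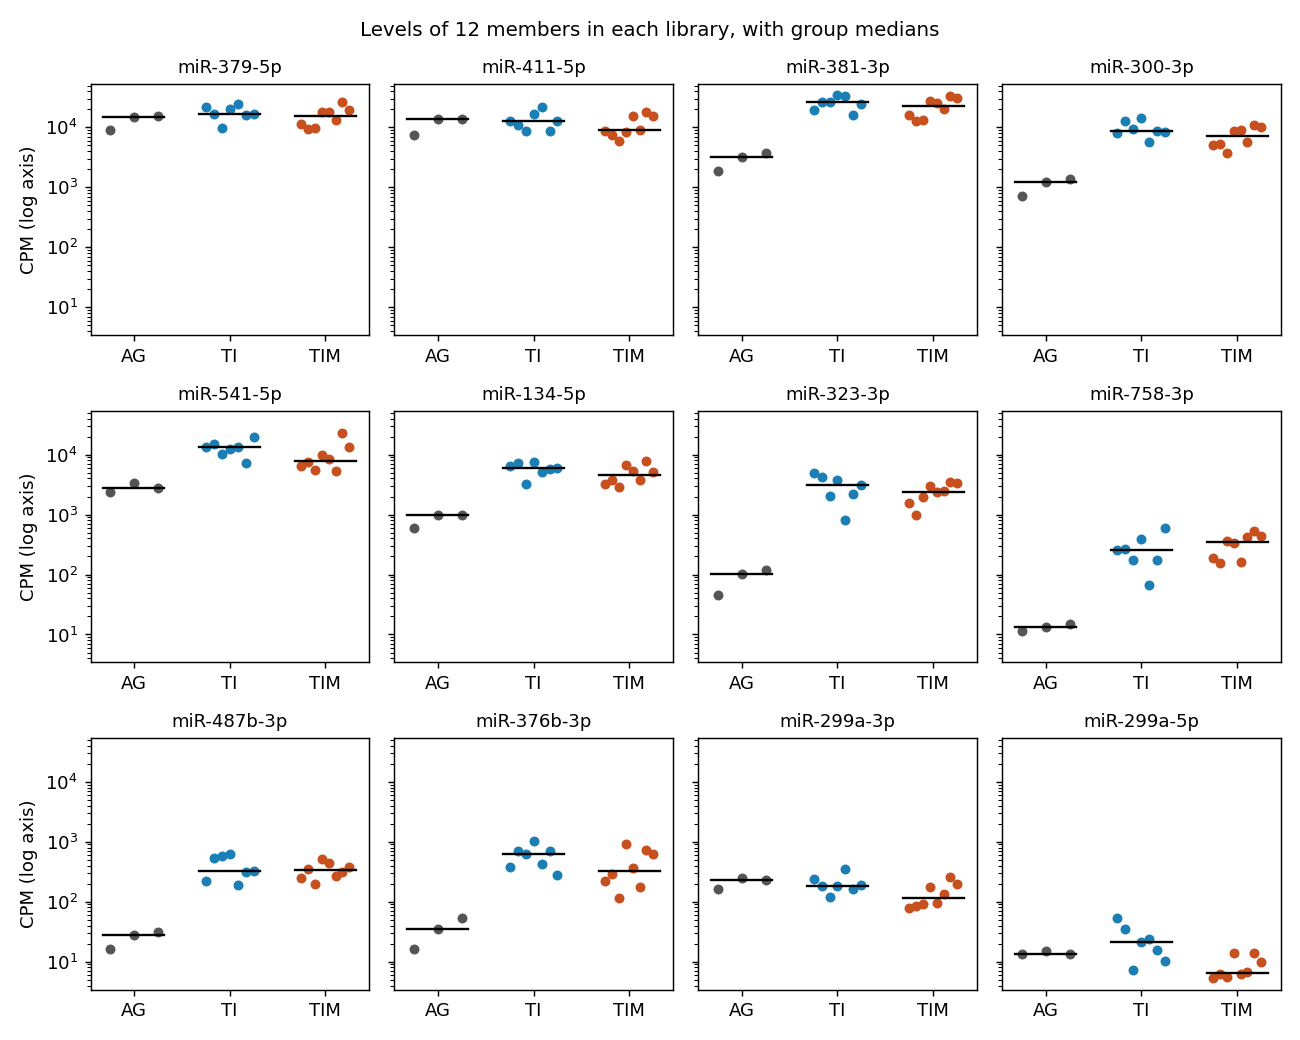
Levels of 12 members in CPM (log axis) in each library, by group (AG n = 3, TI n = 7, TIM n = 8), with a line at the group median. miR-379-5p, miR-411-5p and the miR-299a arms overlap between groups, whereas the points of the other 8 members lie higher in all tumors than in all adrenal glands.

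The makeup of the cluster differed between adrenal gland and tumor. Reads of all 75 members made up 2.36% to 4.27% of a library in AG (median 4.11%), 7.46% to 12.3% in TI (median 9.51%) and 8.40% to 14.8% in TIM (median 10.4%). Within the members' reads, miR-379-5p and miR-411-5p together held 65.4% to 66.8% in AG. They held 19.5% to 36.8% in TI and 25.2% to 30.0% in TIM. In turn, miR-381-3p and miR-300-3p together held 10.3% to 11.7% in AG, 25.6% to 37.6% in TI and 28.0% to 34.3% in TIM. These shares need no scaling between libraries, and neither overlapped between AG and tumors. The pairs were chosen after their values were seen, and the shares are given without a test. AG library 1, in which the members were lowest, had shares of 65.4% and 10.3% and so did not stand apart in makeup. Relative to miR-379-5p, miR-381-3p reads were at 0.208 to 0.242 in AG, 0.901 to 2.65 in TI and 1.26 to 1.59 in TIM.

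**Figure D3:**
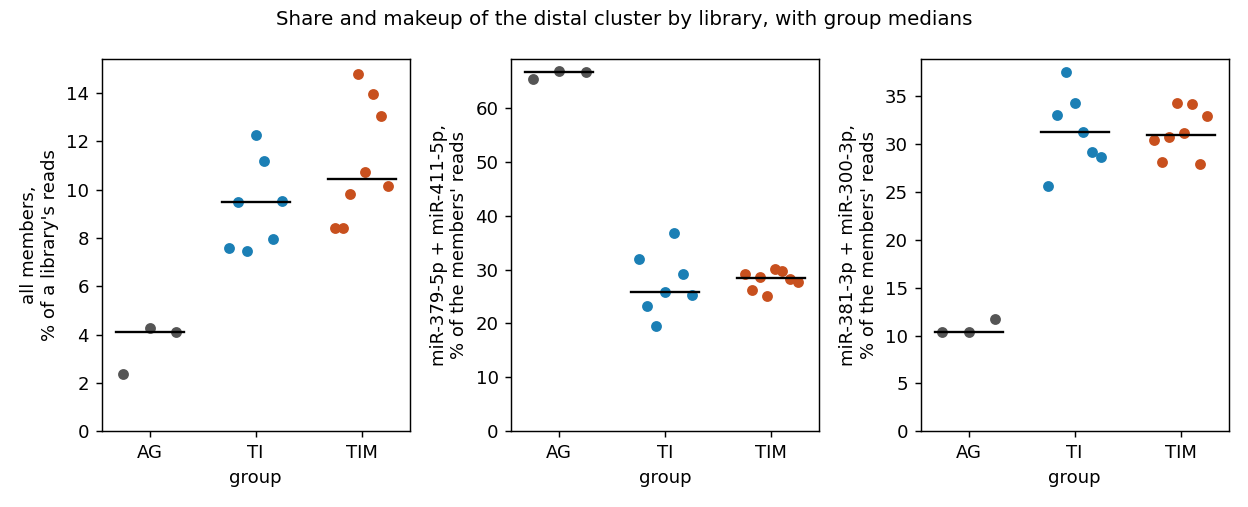
Share of a library's reads on all 75 members (left), and shares of the members' reads on miR-379-5p plus miR-411-5p (middle) and on miR-381-3p plus miR-300-3p (right), in percent, by library, with a line at the group median. The middle share is 65.4% or more in AG and 36.8% or less in tumors, and the right share is 11.7% or less in AG and 25.6% or more in tumors.

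The largest difference of log2(CPM + 1) in both tumor types was that of miR-323-3p, which ranked 19 of 75 members in AG. It had 45.2, 100.2 and 121 CPM in AG, 816 to 4964 CPM in TI (median 3137) and 998 to 3476 CPM in TIM (median 2416). The ratio of mean CPM was 33.9 in TI and 27.1 in TIM, and the log2 difference was 4.99 (SE 0.50) and 4.76 (SE 0.49), with adjusted p = 2.7e-07 and 4.0e-07 from limma. miR-758-3p had 11.4, 13.5 and 15.0 CPM in AG, 65.8 to 606 CPM in TI and 155 to 536 CPM in TIM. Its log2 difference was 4.02 in TI and 4.38 in TIM (adjusted p = 5.9e-06 and 2.5e-06 from limma). The hairpins of miR-323 and miR-758 are neighbours, 3448 and 3750 bp from the start of the cluster. In TI, the lowest library for both was library 5.

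miR-412-3p, near the 3′ end of the cluster, was at 0.277, 1.07 and 1.39 CPM in AG, and at 7.85 to 50.2 CPM in TI and 15.6 to 44.8 CPM in TIM. Its log2 difference was 3.80 in TI and 3.89 in TIM (adjusted p = 1.7e-06 and 1.3e-06 from limma). That scale understates it: its mean was 0.913 CPM in AG, 27.6 CPM in TI and 27.7 CPM in TIM. As a ratio of mean CPM, it was above miR-323-3p in TIM. miR-487b-3p rose from 16.4, 28.3 and 31.1 CPM in AG to medians of 326 CPM in TI and 332 CPM in TIM, a log2 difference of 3.84 and 3.68. miR-376b-3p rose from 16.5, 35.2 and 53.7 CPM to medians of 635 CPM in TI and 327 CPM in TIM, a log2 difference of 4.06 and 3.40. Every tumor library lay above every AG library for all of these.

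Not called higher were 12 of the 68 tested members in TI and 17 in TIM. A total of 10 members passed in neither comparison: miR-379-5p, miR-411-5p, miR-299a-5p, miR-299a-3p, miR-376b-5p, miR-485-5p, miR-494-5p, miR-666-3p, miR-668-3p and miR-679-3p. Some of these had higher means in tumors without passing, such as miR-494-5p, with a ratio of mean CPM of 3.56 in TI and 3.51 in TIM, and miR-666-3p, with 2.39 and 2.06. Only 5 tested members had a negative log2 difference from AG in either tumor type. These were miR-411-5p, both arms of miR-299a, miR-299b-3p and miR-376b-5p. miR-299a-3p had 165, 251 and 229 CPM in AG, 118 to 345 CPM in TI and 78.1 to 260 CPM in TIM, with a log2 difference of -0.13 in TI and -0.72 in TIM (adjusted p = 0.81 and 0.12 from limma). It ranked 13 in AG and 27 in the tumors among the members. miR-299b-3p was the member called lower in TIM, from 1.71, 1.86 and 3.47 CPM in AG to 0.236 to 1.03 CPM, a log2 difference of -1.09 (SE 0.37, adjusted p = 0.022 from limma). Its 18 bases are contained in miR-299a-3p, so this low level cannot be assigned to either hairpin.

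Along the cluster the differences did not form a steady gradient. In TI the log2 differences of the hairpins at the 5′ end, miR-379, miR-411, miR-299a and miR-299b, ran from -0.33 (miR-299b-3p) to 1.77 (miR-379-3p). The next hairpin, miR-380, 2743 bp from the start, stood at 2.36 (5p) and 3.32 (3p). These were followed by miR-1197-3p at 2.89, the arms of miR-323 at 2.59 and 4.99 and miR-758-3p at 4.02. At miR-329, 4421 bp from the start, the differences were 0.92 and 1.05 again. The hairpins at the 3′ end, miR-412, miR-369 and miR-410, ran from 1.99 (miR-369-5p) to 3.98 (miR-369-3p). In TIM the 5′ end was again low, with miR-299a-5p at -0.75, miR-299a-3p at -0.72 and miR-379-5p at 0.21, followed by miR-380-3p at 3.09 and miR-323-3p at 4.76.

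**Figure D4:**
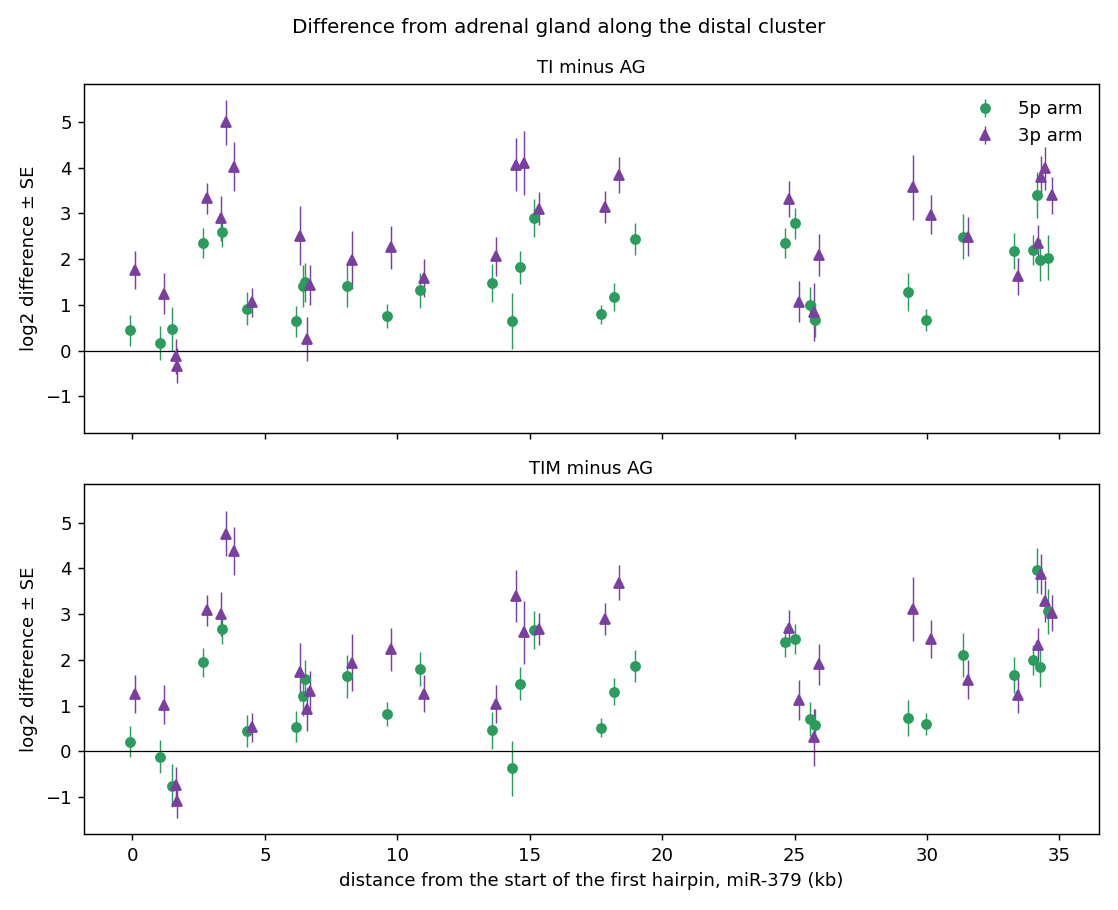
Log2 difference from AG (points, with bars of 1 SE from limma) of each tested member with a RefSeq hairpin against the distance of its hairpin from the start of the miR-379 hairpin in kb, for TI (upper) and TIM (lower), with 5p arms as circles and 3p arms as triangles. In both panels low values at the 5′ end are followed by high values, among them those of miR-323-3p, the highest, and miR-758-3p, and 5p and 3p arms of a hairpin often differ.

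The arms of a hairpin did not always change alike. In TI the median log2 difference was 2.36 over 35 members of the 3p arm and 1.42 over 33 of the 5p arm, and in TIM it was 1.94 and 1.48. The balance of the arms was tested per hairpin as log2((5p CPM + 1)/(3p CPM + 1)) over the 212 hairpin names with both arms tested, of which 32 were members. In TI the balance differed from AG for 17 member hairpins, 15 toward the 3p arm and 2 toward the 5p arm, compared with 21.7% and 12.3% of all hairpin names. In TIM it differed for 11 toward the 3p arm and 2 toward the 5p arm, compared with 15.1% and 8.49%. A scarce arm compresses this measure. For miR-381, whose 5p arm was at 0.0925, 0.233 and 0.0925 CPM in AG, the balance differed by -2.35 in TI (adjusted p = 3.4e-05 from limma) but by -0.98 with a pseudocount of 0.1 CPM (adjusted p = 0.15 from limma). For miR-487b it went from -2.66 to -0.86 (adjusted p = 0.21) and for miR-496a from -2.30 to -1.03 (adjusted p = 0.082), and these calls were lost with the smaller pseudocount in limma.

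With the pseudocount of 0.1 CPM, 10 member hairpins shifted toward the 3p arm and 2 toward the 5p arm in TI, compared with 14.6% and 9.43% of all hairpin names. In TIM, 7 shifted toward the 3p arm and 2 toward the 5p arm, compared with 9.91% and 7.08%. By the deposited assignment of reads, the dominant arm changed for miR-376b, whose 5p arm differs from miR-376c-5p only by U19G. How reads of these near-identical arms were divided is uncertain. In AG the balance of miR-376b was 2.21 ± 0.22 (SD, n = 3). It fell to -1.20 ± 0.51 among TI tumors (SD, n = 7) and to -1.56 ± 1.14 among TIM tumors (SD, n = 8), so that the 5p arm led in AG and the 3p arm in tumors. The difference was -3.41 in TI and -3.77 in TIM (SE 0.55 and 0.54, adjusted p = 0.00017 and 4.7e-05 from limma). The 5p arm, miR-376b-5p, had 91.9, 172 and 215 CPM in AG, a median of 314 CPM in TI and a median of 113 CPM in TIM, and the groups overlapped. miR-485 changed from 0.65 ± 0.12 in AG to -0.77 ± 0.30 in TI and -0.68 ± 0.58 in TIM (adjusted p = 0.0025 and 0.0034 from limma). miR-380 went from 0.93 ± 0.08 in AG to -0.04 ± 0.38 in TI and -0.21 ± 0.42 in TIM (adjusted p = 0.011 and 0.0038 from limma). The mean of miR-376a went from 1.35 in AG to -0.92 in TI and stayed above 0 in TIM, at 0.23.

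The abundant hairpins at the 5′ end moved in the same direction without changing their dominant arm. miR-379-3p rose while miR-379-5p did not pass, from 18.9, 38.8 and 43.3 CPM in AG to medians of 122 CPM in TI and 65.3 CPM in TIM. The balance of miR-379 differed by -1.32 in TI and -1.05 in TIM (adjusted p = 0.0026 and 0.011 from limma), and that of miR-411 by -1.09 and -1.13 (adjusted p = 0.0030 and 0.0018 from limma). The 3p arms of these hairpins differ only by U10C and U22C, so the division of reads between them is uncertain. Shifts toward the 5p arm were those of miR-134, by 1.71 in TI and 1.33 in TIM, and of miR-666, by 1.15 and 1.48. The 3p arm of miR-666 averaged under 10 CPM. miR-323 shifted toward the 3p arm by -2.40 in TI and -2.07 in TIM, and by -1.46 and -1.12 with a pseudocount of 0.1 CPM, where both calls remained. Between TIM and TI the balance differed for 0 member hairpins at an adjusted p under 0.05 in limma, against 3.3% of all hairpin names. At an unadjusted p under 0.05 there were 7 member hairpins, and the share over all hairpin names was not computed at that threshold.

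**Figure D5:**
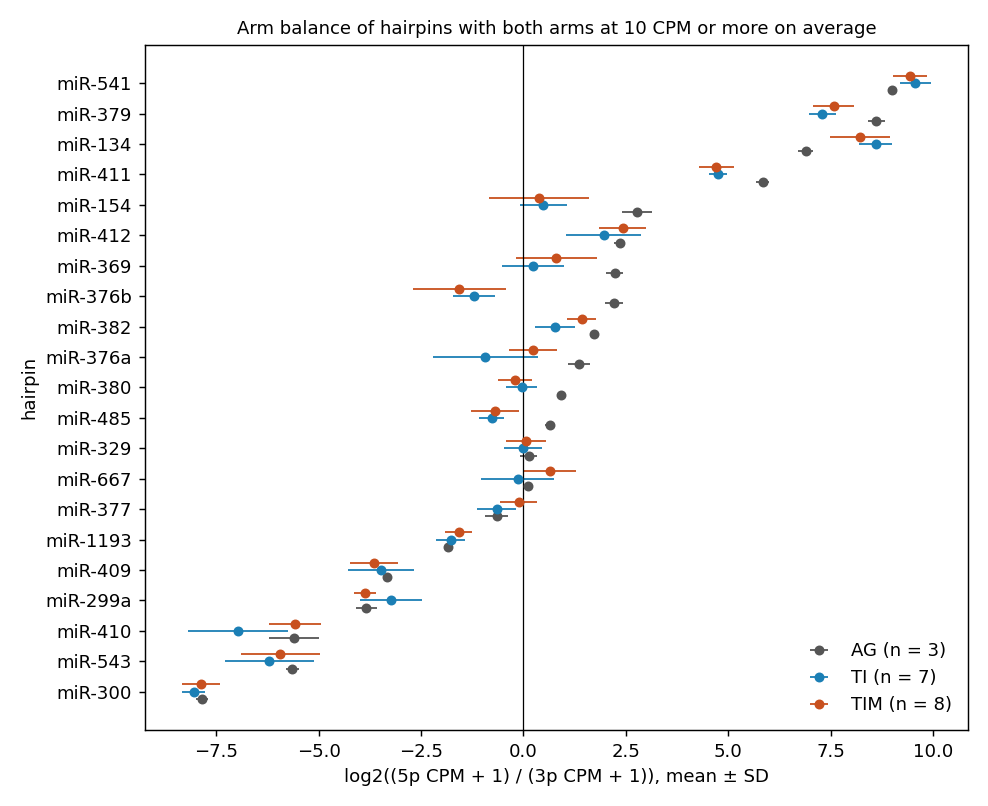
Arm balance, log2((5p CPM + 1)/(3p CPM + 1)), as mean ± SD in AG, TI and TIM for the 21 member hairpins whose arms both averaged at least 10 CPM over all libraries (10 of them had an arm under 10 CPM in AG), ordered by the AG mean. Values above 0 mean more 5p than 3p. The means of miR-376b, miR-485 and, by less, miR-380 lie above 0 in AG and below 0 in both tumor types.

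Between the tumor types no member passed. In limma the TIM and TI libraries differed for 0 of the 68 tested members, compared with 5.23% of all tested miRNAs. At an unadjusted p under 0.05 there were 10 members, compared with 22.7% of all miRNAs. On the recovered reads edgeR called 0 members, compared with 0.413% of all miRNAs, and DESeq2 called 6, all lower in TIM, compared with 16.9%. The log2 differences ran from -1.49 (miR-376a-3p) to 1.03 (miR-410-5p), with 53 members below 0 and 15 above. Their median was -0.24, beside 0.06 over all miRNAs, and it became 0.23, beside 0.49 over all miRNAs, in CPM without the TMM factor. Relative to the median of all miRNAs it was -0.31 with the TMM factor and -0.26 without it.

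The members farthest apart between the tumor types did not pass in limma but passed in some alternatives. miR-376a-3p had 20.7 to 268 CPM in TI (median 87.5) and 11.9 to 54.8 CPM in TIM (median 28.1), with a log2 difference of -1.49 (SE 0.52, adjusted p = 0.087 from limma). miR-299a-5p had 7.31 to 52.7 CPM in TI and 5.29 to 14.1 CPM in TIM, with a log2 difference of -1.22 (SE 0.36, adjusted p = 0.051 from limma). miR-376c-3p differed by -1.02 (SE 0.32, adjusted p = 0.054 from limma). In the other direction miR-410-5p had 4.14 to 26.7 CPM in TI and 11.2 to 39.0 CPM in TIM, with a log2 difference of 1.03 (SE 0.37, adjusted p = 0.094 from limma). The ranges overlapped for each of them. Of 26 alternatives, miR-299a-5p passed in 6, miR-376c-3p in 4 and miR-376a-3p and miR-410-5p in 3 each, with adjusted p between 0.0034 and 0.32 over all of them, and DESeq2 gave the lowest (miR-299a-5p). In CPM, TI library 4 was the highest TI library for 29 members, TIM library 7 the highest TIM library for 30 and TIM library 3 the lowest for 32. The same count over all miRNAs was not made. These counts depend on the TMM factor, which was 0.83 in TIM library 7 and 1.80 in TIM library 3. By share of reads on members, TIM library 4 was highest in TIM (14.8%) and TIM library 1 lowest (8.40%). TIM library 7 had 13.05% and TIM library 3 had 9.81%.

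The proximal miRNAs of the same locus, between 109563692 and 109682273, changed in the same direction. They include miR-127, miR-370, miR-431, miR-433, miR-434 and miR-770. Of 32 tested, 21 rose in TI and 19 in TIM, compared with 26.4% and 25.5% of all tested miRNAs. Their medians were 1.45 and 1.51. A negative difference was found for 2 of them, both in TIM and neither called. As in the distal cluster, an abundant miRNA did not pass while others rose. miR-127-3p had a mean of 34396 CPM in AG, 44303 CPM in TI and 35322 CPM in TIM, with a log2 difference of 0.27 and -0.10 (adjusted p = 0.63 and 0.87 from limma), whereas miR-370-3p went from 1296 CPM in AG to 22757 and 20943 CPM, a log2 difference of 3.94 and 3.96 (adjusted p = 3.3e-06 in both from limma). Of 24 tested miRNAs from elsewhere on chromosome 12, 6 were higher and 7 lower in TI, and 5 higher and 8 lower in TIM, with medians of 0.19 in both.

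Markers of cell types moved with the same groups. Of 8 neural miRNAs, which included miR-9, miR-124 and miR-218, 6 rose in TI and 7 in TIM against AG. Over all tested miRNAs, 26.4% and 25.5% rose. miR-129-5p passed in neither tumor type (adjusted p = 0.69 and 0.41 from limma) and miR-128-3p not in TI (adjusted p = 0.062 from limma). The summed level of the 8 was 4817 to 11729 CPM in AG, 49529 to 94282 CPM in TI and 47702 to 86925 CPM in TIM. Its largest part was miR-218-5p, with a mean of 5585 CPM in AG, 60144 CPM in TI and 44885 CPM in TIM. The 3 neuroendocrine miRNAs did not pass in either direction, at 49424 to 116747 CPM in AG and 28860 to 271810 CPM in all tumors. Both endothelial miRNAs (the arms of miR-126a) were lower in both tumor types, at 38529 to 46092 CPM in AG and 1704 to 8943 CPM in tumors. In TI, 5 of 5 stromal, 3 of 6 leukocyte and 2 of 3 smooth muscle miRNAs fell against AG, and in TIM the counts were 3, 4 and 3. Over all tested miRNAs, 29.3% fell in TI and 25.9% in TIM. The 3 erythroid, 6 epithelial and 3 skeletal muscle miRNAs did not pass in either tumor type. The liver miRNA miR-122-5p was at 780 to 2592 CPM in AG and at 4.25 to 82.4 CPM in tumors. The part of these differences in the levels of the distal members was not tested.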

How the data were processed

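The authors trimmed reads with cutadapt 2.8, aligned them with Bowtie2 2.3.5.1 to mm10, counted with featureCounts 2.0.0 and normalized with edgeR 3.40, per the submitters' processing notes. The authors deposited a signal per miRNA and library, CPM on the library total multiplied by its TMM factor. Their log2 fold changes, p-values and FDR were deposited in the same table and were not used. Of all values, 100% were whole multiples of 1 read (tolerance 0.01), and the recovered reads served as an alternative.

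Differences were tested with limma 3.58.1 (lmFit, eBayes with trend, R 4.3.3) on log2(CPM + 1), with a threshold of 0.05 on the adjusted p. The members and the lists of markers were chosen with earlier results of these data known, and they carry no list test. Named members were the 12 most abundant in tumors, the 5 highest and 5 lowest mean differences and 3 highest and 3 lowest TIM against TI differences (at least 10 CPM in a group), negative differences, at most 5 arm balance calls per comparison, and shared seeds. Further members are named to describe positions and arms. Alternatives were other pseudocounts (0.1 and 5), filters, scalings, 2-group models, edgeR 4.0.16, DESeq2 1.42.0 and each library left out. The scripts were tested on simulated data. No libraries were identical. The study counts as many IGF2BP1 tumors as tumor-bearing mice, which puts TI tumors in separate mice. Its IGF2BP1/MYCN mice often bore several tumors, and which mouse a TIM library came from is not given in the sources used here, so TIM libraries may share a mouse and p-values with TIM may be too small.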

Additional observations from a re-analysis of the deposited data

Results flagged for a closer look

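Among abundant and named members, single libraries stood apart within a group of tumors in 2 of the 62 groups examined, while chance flags about 1 in 20 groups, or 3.1 here. In TI, miR-134-5p was lowest in library 3, with 3176 CPM against 5209 CPM in the nearest other library, a gap of 0.575 of the range of the group. Even this library lay above all adrenal glands, of which the highest had 995 CPM. In TIM, miR-667-5p was highest in library 7, with 179 CPM against 104 CPM in the nearest other library, a gap of 0.555 of the range. The same library had the highest TIM level in CPM for 30 of the 68 tested members, a count not made over all miRNAs.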

How the results depend on the processing

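The direction of the members as a group against AG held in all alternatives run, in all of which between 45 and 62 members were called in TI and between 38 and 58 in TIM. Over all miRNAs, 27.4% to 65.8% and 24.9% to 60.1% were called. Members tested numbered 58 with the stricter filter on low values, 75 without a filter and 68 otherwise. Leaving out each library in turn gave 45 to 56 members for TI and 38 to 52 for TIM, lowest without AG library 1 in both. Over all miRNAs, 42.7% to 59.5% and 33.3% to 52.5% were called in these runs. The members' medians were 1.69 to 2.10 and 1.48 to 1.75. When the totals excluded miR-148a-3p, the medians were 2.51 in TI and 2.24 in TIM, and the median share of reads on members was 17.6% in TI and 14.7% in TIM. In TIM the median was 2.10 with the members left out of the totals and 2.08 with edgeR. Scaling also moved all miRNAs. In CPM without the TMM factor the median of all miRNAs moved from -0.01 to -0.15 in TI, from 0.18 to 0.41 in TIM and from 0.06 to 0.49 in TIM against TI. Without miR-148a-3p in the totals, 59.3% of all calls in TI and 65.7% in TIM were higher, compared with 47.4% and 49.6%. For TIM against TI this share went from 65.8% to 89.0% without the TMM factor, 90.0% with the members left out of the totals and 50.9% with median ratio scaling. Relative to all miRNAs, the members' median stayed between 1.92 and 2.17 in TI over the scalings of CPM, and between 1.46 and 1.67 in TIM.

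Between TIM and TI the count of 0 members became 1 with a pseudocount of 0.1, 3 with median ratio scaling and 6 with DESeq2, all lower in TIM, beside 45, 53 and 123 of the 726 miRNAs. It became 3, all higher in TIM, in CPM without the TMM factor and 3 with the members left out of the totals, beside 155 and 170 of all miRNAs, and the median turned to 0.23 and 0.26. With a library left out the count of members ran from 0 to 5, and the median from -0.35 to -0.15. It was 5 without TI library 7 and 4 without TIM library 4, beside 72 and 66 of the 726 miRNAs. The cause was not tested. With a library left out, arm balance calls of members numbered 15 to 19 for TI, 10 to 14 for TIM and 0 to 6 for TIM against TI (6 without TI library 7). Over all 212 hairpin names the same runs called 45 to 83, 32 to 56 and 4 to 28 (28 without TI library 7). Restricted, after seeing the data, to hairpins whose arms both averaged 10 CPM, the member calls were 10 of 21 in TI and 7 in TIM, beside 29.8% and 19.2% of 104 hairpin names. Of these calls, 3 and 2 had an arm under 10 CPM in AG, so the restriction itself depends on the tumors. With a pseudocount of 0.1 the arm balance calls of members were 12 and 9, beside 51 and 36 of all 212 hairpin names. miR-299b-3p, lower in TIM, passed in 17 of 21 alternatives. No paired analysis was possible because a column names its group alone. The 3 AG libraries limit all comparisons with AG, and members near 3 reads have little precision.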
